A study of Mus musculus with 6 samples.

Results

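TGF-beta ligands and response genes were followed in mouse embryonic fibroblasts under reprogramming, as a set of 9 genes given by name (Tgfb1, Tgfb2, Tgfb3, Tgfbi, Ltbp2, Smad7, Skil, Pmepa1 and Itga11). Each gene was taken as the probe set whose only symbol in the platform annotation is that gene, and all 9 had exactly 1 such probe set, out of 19938 genes tested. The fibroblasts were of 3 genotypes, Foxd1+/+, Foxd1+/- and Foxd1-/-, and Foxd1 is a forkhead transcription factor of embryonic stroma. All 3 groups, the controls included, carried retroviral Oct4, Sox2 and Klf4, and their RNA was collected on day 8 after infection. There were 2 arrays per genotype, labelled biological replicates 1 and 2, and 6 arrays in all. The labels do not say which embryos or litters the cultures came from, how the Foxd1 alleles were made or what a replicate number marks. The p-values therefore measure only the spread between these arrays, and the part of it that is technical was not tested. No uninfected or day 0 array was analysed here, so the effect of the 3 factors themselves was not measured.

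TGF-beta ligands are secreted as latent dimers, stored in the matrix by latent TGF-beta binding proteins and released by proteases or integrins. Released ligand binds type I and type II receptors, which phosphorylate Smad2 and Smad3. Together with Smad4 these enter the nucleus and switch on matrix genes, cytoskeletal genes and the pathway's own inhibitors. In fibroblasts the pathway sustains the mesenchymal state, and in reprogramming it opposes the change towards epithelial character.

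Median intensity per array lay between 76.5 and 79.6, on a linear scale whose lowest value on any array was 19.5. No detection call accompanies the values, and levels were compared between arrays for the same gene and never between genes. Foxd1, which checks the labels, read 1907 and 1169 on the arrays labelled Foxd1+/+, 1014 and 2074 on those labelled Foxd1+/-, and 189 and 213 on those labelled Foxd1-/-. Array 2 labelled Foxd1+/- held more Foxd1 than array 2 labelled Foxd1+/+, so the heterozygous level goes against its label, and directions are given for the groups as labelled. Of the 14 fibroblast markers, the intermediate filament gene Vim read between 7254 and 8287 over the arrays, the fibrillar collagen gene Col1a1 between 4368 and 7143, and Fap, a surface protease and the lowest of the list, between 74 and 120.3, which reaches the array medians. Xist, the RNA of the inactive X chromosome, read 34 on array 1 labelled Foxd1+/- and 35 on array 2 labelled Foxd1+/+, where the Y-linked Uty read 244.0 and 274. On the other 4 arrays Xist lay between 514 and 848 and Uty between 24 and 26. These 4 are both Foxd1-/- arrays, array 1 labelled Foxd1+/+ and array 2 labelled Foxd1+/-. Sex markers were therefore uneven between Foxd1-/- and the other genotypes, and their part in the genotype differences was not tested. Outside Foxd1-/-, the 2 arrays with low Xist also held less Foxd1, at 1014 and 1169 against 1907 and 2074. The reason for this match was not tested. The leukocyte marker Ptprc read between 41 and 49.

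**Figure D1:**
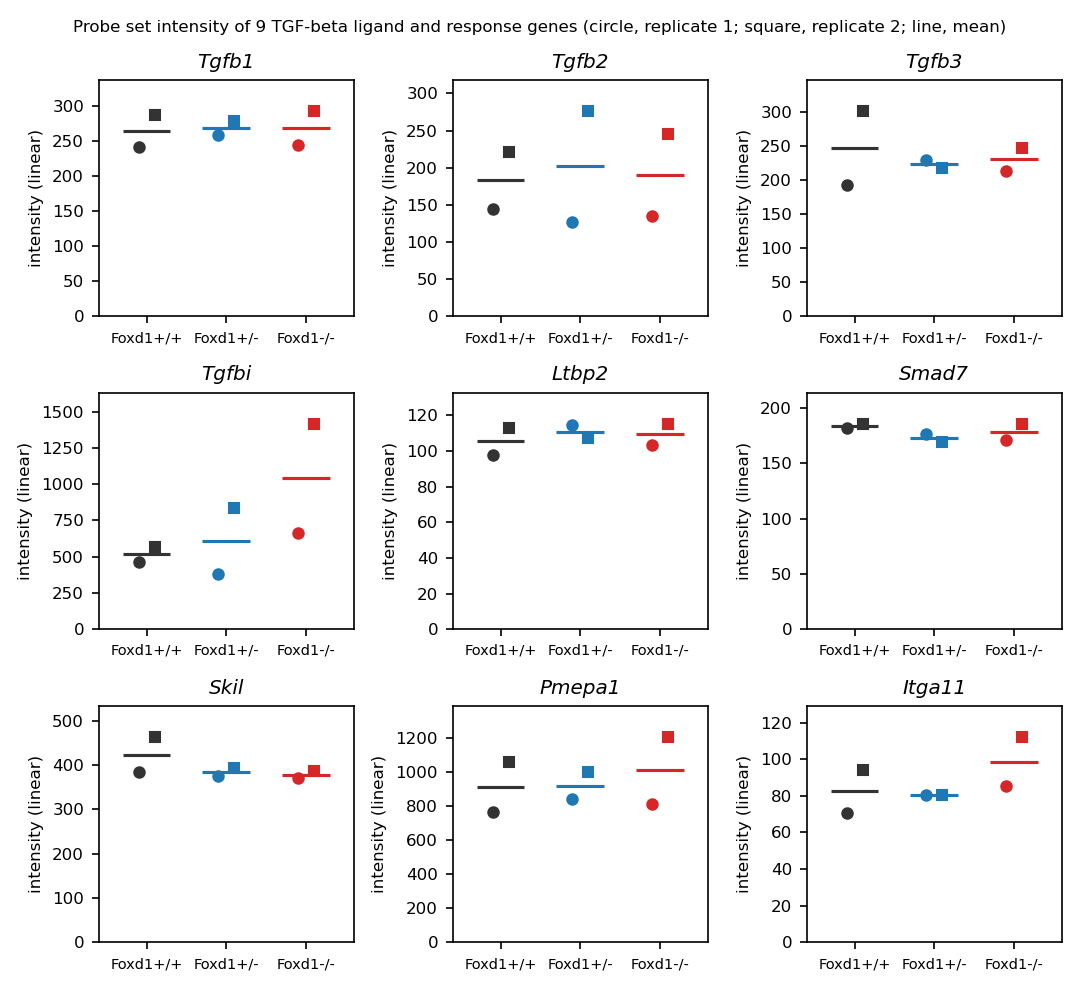
Deposited probe set intensity (linear scale, axis from 0) of the 9 genes on the 6 arrays, by labelled genotype, with circles for replicate 1, squares for replicate 2 and a line at the mean of 2 arrays. Tgfbi spans 379 to 1415, Tgfb2 is higher on array 2 of each genotype, and Smad7 stays between 169 and 186.

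Among the ligands, Tgfb1 (probe set 10551185), the form most tissues make, read 241 and 287 on the arrays labelled Foxd1+/+, 259 and 279 on Foxd1+/-, and 244 and 293 on Foxd1-/-. Its genotype means were 264 ± 32.5, 269 ± 14.3 and 268.5 ± 34.8 (SD, n = 2 arrays each), so they lay closer together than the arrays of any genotype. Foxd1-/- minus Foxd1+/+ came to 0.02 ± 0.13 on the log2 scale (SE), with a 95% interval from -0.32 to 0.37.

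Tgfb2 (probe set 10360920), the ligand of developing heart, skeleton and eye, read 145 and 221 on Foxd1+/+, 127 and 277 on Foxd1+/-, and 135 and 245 on Foxd1-/-. The 3 arrays numbered 1 were all below the 3 numbered 2, and the genotypes overlapped throughout. Means were 183 ± 54.3, 202 ± 106 and 190.3 ± 77.7 (SD, n = 2 arrays each). The log2 differences were 0.03 ± 0.50 for Foxd1-/- against Foxd1+/+, -0.04 ± 0.50 for Foxd1-/- against Foxd1+/-, and 0.07 ± 0.50 (SE) for Foxd1+/- against Foxd1+/+. The 95% interval of the first ran from -1.28 to 1.33. With the replicate number as a block the 3 differences were the same and their SE was 0.13, so the width of that interval depends on leaving the number out of the fit. Within numbers, Foxd1-/- minus Foxd1+/+ was -0.09 for array 1 and 0.15 for array 2.

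Tgfb3 (probe set 10401673), the ligand of palate and lung development, read 192 and 302 on Foxd1+/+, 229 and 218 on Foxd1+/-, and 214 and 248 on Foxd1-/-. The pair labelled Foxd1+/+ held both its lowest and its highest value. Means were 247 ± 77.4, 224 ± 7.66 and 231 ± 24.0 (SD, n = 2 arrays each), and the largest log2 difference, Foxd1+/- against Foxd1+/+, was -0.11 ± 0.23 (SE). Within replicate numbers that difference was 0.25 for array 1 and -0.46 for array 2.

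Of the matrix products, Tgfbi (probe set 10405587), a secreted adhesion protein named for its induction by TGF-beta, varied most. It read 466 and 567 on Foxd1+/+, 379 and 837 on Foxd1+/-, and 665 and 1415 on Foxd1-/-. The arrays labelled Foxd1-/- lay above both arrays labelled Foxd1+/+, while the Foxd1+/- arrays overlapped both, with 1 the lowest of all 6. Means were 517 ± 70.8, 608 ± 324 and 1040.1 ± 530.4 (SD, n = 2 arrays each), in the order Foxd1+/+, Foxd1+/-, Foxd1-/-. No neighbours in that order differed beyond the spread between arrays, which here includes the difference between array numbers. Tgfbi was 0.91 ± 0.52 higher (log2, SE) in Foxd1-/- than in Foxd1+/+ with a 95% interval from -0.45 to 2.28, an unadjusted p of 0.143 and a limma adjusted p = 0.99985. The same sign held within each replicate number, at 0.51 for array 1 and 1.32 for array 2. Against Foxd1+/- the difference was 0.78 ± 0.52, at 0.81 for array 1 and 0.76 for array 2. The difference passed in none of the alternative fits run, and with 1 array left out it ranged from 0.37 to 1.46 against Foxd1+/+ and from 0.21 to 1.36 against Foxd1+/-.

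Ltbp2 (probe set 10401527), a fibrillin-binding relative of the latent TGF-beta binding proteins, read 98 and 113 on Foxd1+/+, 115 and 107 on Foxd1+/-, and 104 and 115 on Foxd1-/-. Its whole range over the 6 arrays was 0.23 on the log2 scale, and its genotype differences lay between -0.02 and 0.07.

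Itga11 (probe set 10586079), the collagen-binding integrin subunit of fibroblasts, read 71 and 94 on Foxd1+/+, 80.2 and 80.4 on Foxd1+/-, and 85 and 112 on Foxd1-/-. On Foxd1+/+ array 1 it was below the array median of 76.9. Its mean log2 level of 6.45 was under the median of 6.69 over genes. Both Foxd1-/- arrays were above both Foxd1+/- arrays, by 0.28 ± 0.19 (log2, SE; 95% interval -0.21 to 0.78; unadjusted p = 0.20 by limma), and overlapped those labelled Foxd1+/+. That difference was 0.085 without Foxd1-/- array 2 and 0.48 without Foxd1-/- array 1.

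The remaining members act against the pathway. Smad7 (probe set 10456745), the inhibitory Smad that blocks the type I receptor, read 182 and 185 on Foxd1+/+, 177 and 169 on Foxd1+/-, and 171 and 186 on Foxd1-/-. All 6 arrays fell within 1.10-fold of each other, although both Foxd1+/- arrays were below both Foxd1+/+ arrays, by -0.08 ± 0.07 (log2, SE). The 95% interval of that difference ran from -0.25 to 0.09.

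Skil (probe set 10491300), also called SnoN, a Smad corepressor that the pathway degrades and then induces, read 384 and 464 on Foxd1+/+, 375 and 394 on Foxd1+/-, and 369.7 and 386 on Foxd1-/-. Array 2 labelled Foxd1+/+ stood above the other 5, and Foxd1-/- minus Foxd1+/+ came to -0.16 ± 0.10 on the log2 scale (SE; 95% interval -0.43 to 0.11). It was -0.023 without that array and -0.30 without Foxd1+/+ array 1. Pmepa1 (probe set 10490159), a membrane protein that sequesters Smads and is itself a TGF-beta target, read 768 and 1062 on Foxd1+/+, 843 and 1000.3 on Foxd1+/-, and 815 and 1208 on Foxd1-/-. Genotypes overlapped, array 2 was the higher of each pair, and the largest genotype difference was 0.14 ± 0.26 (log2, SE).

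Across the set, limma called 0 of 9 members in each of the 3 genotype comparisons, as it called 0 of the 19938 genes (0%). Foxd1 itself was not called, at -2.89 ± 0.41 (log2, SE; limma adjusted p = 0.99985) in Foxd1-/- against Foxd1+/+. Against Foxd1+/- it was -2.85 ± 0.41 (limma adjusted p = 0.99999). An absence of calls therefore does not show that the members were unchanged. At an unadjusted p under 0.05 there were again 0 of 9 members in each comparison. The share of all genes at that level was 2.11% for Foxd1-/- against Foxd1+/+, 2.31% for Foxd1-/- against Foxd1+/-, and 0.973% for Foxd1+/- against Foxd1+/+. With 1 array left out the numbers of genes behind these shares, 421, 460 and 194, ranged from 199 to 818, 169 to 925 and 115 to 642. The lowest and highest came without Foxd1-/- array 2 and array 1 in the first 2 comparisons, and without either Foxd1-/- array and without Foxd1+/- array 1 in the last. Arrays did not overlap for 1 of 9 members in each comparison (Tgfbi, Itga11 and Smad7 in turn), against 25.7%, 25.6% and 20.4% of all genes, so the members' share was below the background. Median log2 differences over the 9 members were 0.03, 0.04 and 0.02, beside 0.0032, -0.0027 and 0.0024 over all genes. An exact rank test of 2 arrays against 2 cannot give a p below 0.333. Without array 2 of Foxd1+/+ and of Foxd1+/-, the pair in which Foxd1 was higher in Foxd1+/-, limma also called 0 members and 0 genes in each comparison.

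**Figure D2:**
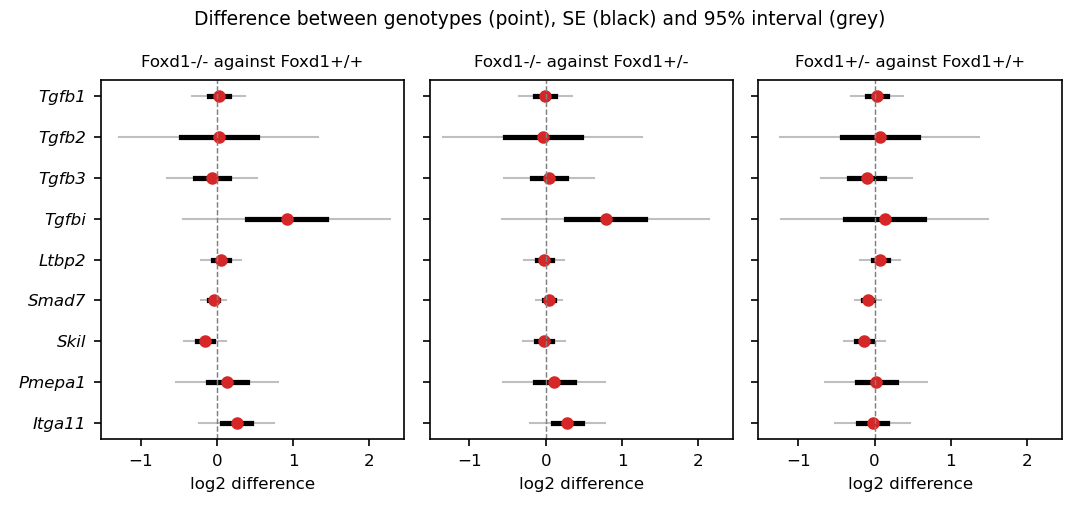
Log2 difference between genotypes for each of the 9 genes in the 3 comparisons, with a point at the fitted difference, black bars for 1 SE and grey bars for the 95% interval. Every interval includes 0, the widest belong to Tgfb2 and Tgfbi, and the narrowest to Smad7.

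The other genes of the pathway, in lists by role, gave 0 calls by limma in any genotype comparison. Receptors and coreceptors read higher in Foxd1-/- than in Foxd1+/+ in 6 of 6 genes, with a median of 0.10 on the log2 scale, and higher than in Foxd1+/- in 6 of 6 with a median of 0.12. Beside this and the list counts below, 51.7% of all genes read higher in Foxd1-/- than in Foxd1+/+ and 48.6% higher than in Foxd1+/-. Tgfbr2, the ligand-binding type II receptor, read 1258 and 1208 on Foxd1+/+, 1242 and 1137 on Foxd1+/-, and 1570.2 and 1421 on Foxd1-/-. Both Foxd1-/- arrays were above the other 4, by 0.28 ± 0.08 against Foxd1+/+ and 0.33 ± 0.08 against Foxd1+/- (log2, SE; unadjusted p of 0.020 and 0.011 by limma, and neither passed adjustment). In these comparisons arrays did not overlap, in either direction, for 25.7% and 25.6% of all genes.

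Tgfbr3, the coreceptor betaglycan that presents Tgfb2, read 222 and 280.3 on Foxd1+/+, 248 and 278 on Foxd1+/-, and 329 and 391 on Foxd1-/-. It too was above the other 4 arrays on both Foxd1-/- arrays, by 0.52 ± 0.15 and 0.45 ± 0.15 (log2, SE), and did not pass adjustment. Fibroblast markers read higher in Foxd1-/- than in Foxd1+/+ in 12 of 14 genes, with summed intensities of 31318 and 39273 on Foxd1+/+, 32295 and 38390 on Foxd1+/-, and 36749 and 43932 on Foxd1-/-. Pluripotency markers read lower in Foxd1-/- in 11 of 12 genes against Foxd1+/+ (median -0.16) and in 10 of 12 against Foxd1+/- (median -0.11), with the nuclear receptor Nr0b1 at -1.64 ± 0.55 and -1.83 ± 0.55 (log2, SE). The part of these shifts in the receptor values was not tested, and in bulk RNA fewer cells of a type and less RNA per cell cannot be told apart.

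Latency and activation genes read higher in Foxd1-/- than in Foxd1+/+ in 12 of 13 (median 0.11). Lrrc32, a membrane anchor of latent TGF-beta, read 193 and 197 on Foxd1+/+, 224 and 243 on Foxd1+/-, and 236 and 251 on Foxd1-/-. Both Foxd1+/+ arrays were below the other 4, by 0.32 ± 0.07 and 0.26 ± 0.07 (log2, SE). Matrix and cytoskeletal targets had a median of 0.02 with 11 of 17 higher, and inhibitors a median of 0.03 with 7 of 12 higher. Pathway targets among growth arrest genes and transcription factors had a median of 0.15 with 9 of 13 higher, among them Id3, a helix-loop-helix inhibitor, at 0.49 ± 0.20. The Smads had a median of 0.03 with 3 of 5 higher. Epithelial genes, the side that the pathway opposes, were divided, with 9 of 20 higher and a median of -0.02.

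Macrophages make Tgfb1 and Tgfbi in many tissues, so their markers were read beside these genes. Macrophage markers were lower in Foxd1-/- than in Foxd1+/+ in 13 of 15 genes, with summed intensities of 2018 and 2171 on Foxd1+/+, 2263 and 2031 on Foxd1+/-, and 1583 and 1734 on Foxd1-/-. The part of these marker differences in the values of Tgfb1 and Tgfbi was not tested. No marker could be listed at 0, since the lowest value on any array was 19.5. The lowest macrophage marker of each array lay between 5.25 and 5.53 on the log2 scale, below the median gene mean of 6.69. Without a detection call, whether these markers were expressed was not tested.

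Array numbers were compared next. A fit with genotype and replicate number as separate terms compared the 3 arrays numbered 2 with the 3 numbered 1. limma called 2 of 9 members, Tgfb2 and Pmepa1, both higher on the arrays numbered 2, where it called 8.84% of all genes. At an unadjusted p under 0.05 there were 5 of 9 members, all higher, beside 25.5% of all genes in either direction. Array 2 was the higher of the pair in all 3 genotypes for 6 of 9 members and the lower in all 3 for 0 of 9, where 22.6% of all genes were higher throughout and 22.8% lower throughout. The median over the 9 members was 0.26 on the log2 scale, and over all genes it was -0.0016.

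Tgfb2 rose by 0.86 ± 0.10 (log2, SE; limma adjusted p = 0.017), which is 1.82-fold, with 0.61 in Foxd1+/+, 1.12 in Foxd1+/- and 0.85 in Foxd1-/-. Pmepa1 rose by 0.43 ± 0.07 (limma adjusted p = 0.038), or 1.35-fold, with 0.47, 0.25 and 0.57 in the same order. The Tgfb2 call held without the Foxd1+/+ arrays (limma adjusted p = 0.015) and without the Foxd1+/- arrays (0.021) and was lost without the Foxd1-/- arrays (0.13), when 0 genes of all passed by limma, 3191 being at an unadjusted p under 0.05. The Pmepa1 call was lost without the Foxd1+/+ arrays (0.10) and without the Foxd1-/- arrays (0.19).

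Tgfbi differed by 0.84 ± 0.18 (limma adjusted p = 0.063), close to Tgfb2 in size but less even, with 0.28 in Foxd1+/+, 1.14 in Foxd1+/- and 1.09 in Foxd1-/-. It passed without the Foxd1+/+ arrays, at 1.12 (limma adjusted p = 0.0075). Tgfb1 differed by 0.21 ± 0.05 (0.086 by limma) with all 3 genotypes between 0.11 and 0.26. Itga11 differed by 0.27 ± 0.10 (0.17 by limma), with 0.41 and 0.39 in Foxd1+/+ and Foxd1-/- and 0.0030 in Foxd1+/-, and it passed without the Foxd1+/- arrays, at 0.40 (0.033 by limma). Skil differed by 0.13 ± 0.06 (0.27 by limma).

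Tgfb3, Ltbp2 and Smad7 had no common sign, each being lower on array 2 labelled Foxd1+/- than on array 1. Their differences there were -0.07, -0.10 and -0.06, against 0.65, 0.20 and 0.03 in Foxd1+/+. The sex markers also differed between array 1 and array 2 of Foxd1+/+ and of Foxd1+/-, in opposite directions, while both Foxd1-/- arrays were alike in reading high Xist and low Uty. In that Foxd1-/- pair Tgfb2 and Pmepa1 differed by 0.85 and 0.57, beside means of 0.86 and 0.43 over the 3 genotypes. That is a single pair of arrays, and the part of sex in the differences between array numbers was not tested.

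**Figure D3:**
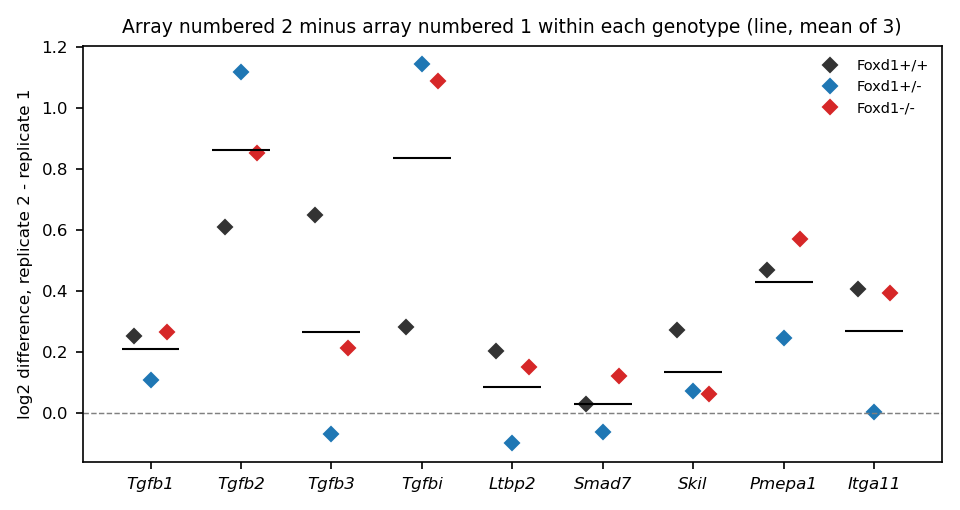
Log2 difference between array 2 and array 1 of each genotype (diamonds, coloured by genotype) for the 9 genes, with a line at the mean of the 3 genotypes. Tgfb2, Tgfbi, Tgfb1, Skil, Pmepa1 and Itga11 lie above 0 in all 3 genotypes, while Tgfb3, Ltbp2 and Smad7 fall below it in Foxd1+/-.

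Pathway genes around these members changed with the replicate number as well. Of the latency and activation genes, limma called 7 of 13 higher and 1 lower on the arrays numbered 2. Those higher were Mmp2 and Mmp14, proteases of the matrix (0.63 ± 0.05 and 0.25 ± 0.04, log2, SE), the integrin subunits Itgb5 (0.57 ± 0.05) and Itgb8 (0.85 ± 0.11), of which Itgb8 forms an activator of latent ligand, the binding proteins Ltbp3 (0.53 ± 0.05) and Ltbp4 (0.82 ± 0.14), and the procollagen protease Bmp1 (0.31 ± 0.05). Ltbp1, the binding protein that stores most latent TGF-beta, went the other way and fell by 0.31 ± 0.06 (log2, SE), from between 1064 and 1163 on the arrays numbered 1 to between 843 and 938 on those numbered 2.

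Receptors called higher were Tgfbr1, the type I receptor (0.34 ± 0.06), Acvrl1, the type I receptor of endothelium (0.38 ± 0.05) and the coreceptor Eng (0.26 ± 0.04), and the activin receptor Acvr1b fell by 0.30 ± 0.06. Tgfbr2 differed by -0.11 ± 0.05 and did not pass. Smad3, the signal-carrying Smad, was the only one of 5 in its list that passed (0.36 ± 0.07). Of the inhibitors, limma called 2 of 12 higher and 2 lower. Decorin (Dcn), a ligand-binding proteoglycan, rose by 0.48 ± 0.07 and Ldlrad4, a Smad-binding relative of Pmepa1, by 0.47 ± 0.07, while the ubiquitin ligase Nedd4l fell by 0.39 ± 0.07 and Strap, a receptor-binding inhibitor, fell by 0.36 ± 0.05.

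Of the matrix and cytoskeletal targets, 6 of 17 were called higher and 1 lower. Periostin (Postn) rose by 0.73 ± 0.09, the protease inhibitor Timp3 by 0.70 ± 0.05, the collagen gene Col1a1 by 0.40 ± 0.07, Col3a1 and Col5a1 by 0.37 ± 0.05 and 0.37 ± 0.06, and the proteoglycan Bgn by 0.49 ± 0.06 (log2, SE), whereas Timp1 fell by 0.74 ± 0.09. Of the growth arrest and transcription factor targets 2 of 13 were called higher, the mesenchymal repressor Zeb2 (0.47 ± 0.05) and Id2 (0.80 ± 0.15), and 2 lower, Hmga2 and Junb (-0.44 ± 0.07 and -0.30 ± 0.06). These lists are set against a background of 8.84% of all genes called in either direction, and without the Foxd1-/- arrays limma called 0 genes.

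Markers of cell state were read beside these values. Fibroblast markers were called higher on the arrays numbered 2 in 7 of 14 genes and lower in 0, with the growth factor receptor Pdgfrb at 0.55 ± 0.05 (log2, SE). That list shares Dcn, Col1a1, Col1a2, Col3a1 and Twist2 with the pathway lists. Pluripotency markers were lower in 12 of 12, 5 of them called, and the Nodal coreceptor Tdgf1 read 363, 189 and 192 on the arrays numbered 1 and 50, 48 and 46 on those numbered 2. Summed pluripotency marker intensity was 4129 and 1771 on Foxd1+/+, 2918 and 2483 on Foxd1+/-, and 2768 and 1544 on Foxd1-/-. Epithelial genes were called lower in 2 of 20, the splicing regulator Esrp2 (-0.58 ± 0.07) and the tight junction gene Cldn4 (-0.35 ± 0.06), with a list median of -0.02. Macrophage markers gave 2 of 15 called, Mrc1 and Itgam, both lower. The counts of called genes stand beside 8.84% of all genes called in either direction. For the count by direction alone, 49.3% of all genes were higher on the arrays numbered 2. The part of these marker differences in the values of Tgfb2, Pmepa1 and Tgfbi was not tested.

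**Figure D4:**
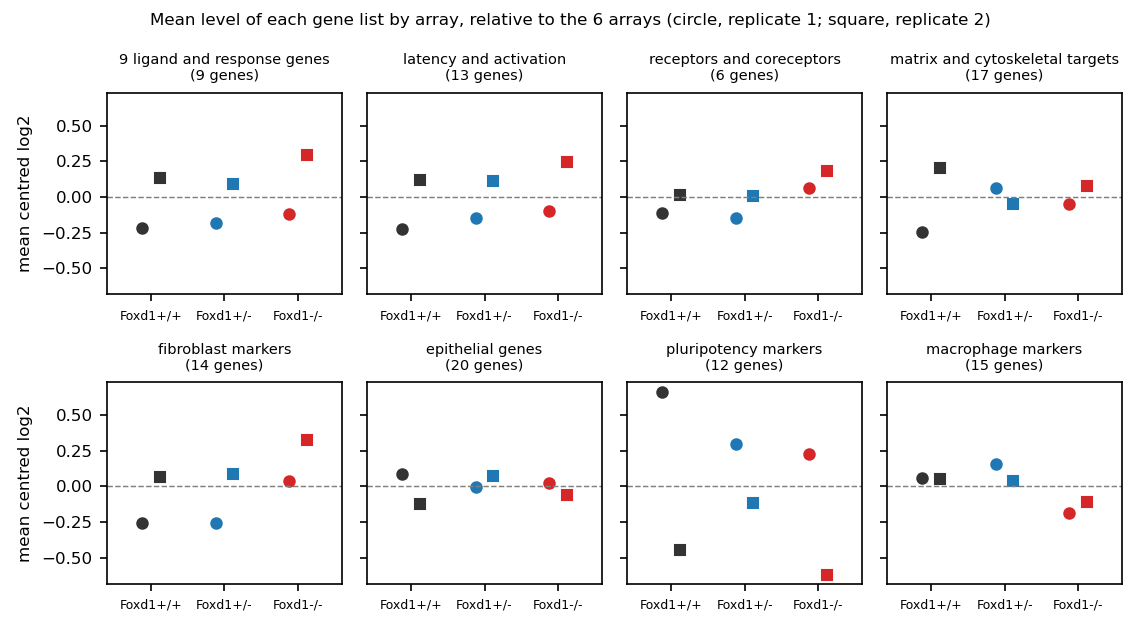
Mean log2 level of each gene list on each array, relative to the mean of the 6 arrays (y axis), by labelled genotype, with circles for replicate 1 and squares for replicate 2. The 9 ligand and response genes lie between -0.22 and 0.29 and, like the latency and fibroblast lists, are higher on array 2 of each genotype, while pluripotency markers run from 0.66 to -0.62 in the opposite order.

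The members did not share a single profile over the arrays. Likeness was measured as the root mean square difference between 2 genes' log2 values after each gene's own mean was removed, over 6 arrays. Tgfb1 and Ltbp2 were the most alike pair of members (0.07), and Tgfbi and Skil the least (0.63). The measure grows with a gene's range, which was 0.28 for Tgfb1, 0.23 for Ltbp2 and 1.90 for Tgfbi. In Foxd1+/- array 2 minus array 1 was 0.11 for Tgfb1 and -0.10 for Ltbp2, so that pair was alike in small range more than in order. Genes outside the set were compared if their range was at least 0.8 times that of the member. All such likeness is a description of 6 arrays that share genotype and replicate number, and carries no test.

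Tgfb2 was most alike to Alb, serum albumin (0.060), and to Ltbp4 (0.063), the latent TGF-beta binding protein named above. Ltbp4 read 255 and 347 on Foxd1+/+, 214 and 466 on Foxd1+/-, and 235 and 439 on Foxd1-/-, with the same order of arrays at the top (Foxd1+/- array 2, then Foxd1-/- array 2) as Tgfb2. Pmepa1 was most alike to Btg1, an antiproliferative gene, and the receptor gene Notch2 (0.028 each). Notch2 read 560 and 781 on Foxd1+/+, 590.3 and 745 on Foxd1+/-, and 600.3 and 873 on Foxd1-/-, higher on array 2 of each pair as Pmepa1 was.

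Tgfbi was most alike to Phf11d (0.061) and to Oas3 (0.092), an interferon-induced antiviral enzyme, among 198 genes with a range large enough to be compared. Phf11d read 136 and 159 on Foxd1+/+, 113 and 226 on Foxd1+/-, and 191 and 377 on Foxd1-/-. Oas3 read 67 and 74 on Foxd1+/+, 61 and 121 on Foxd1+/-, and 94 and 195 on Foxd1-/-. On both Foxd1+/+ arrays and on Foxd1+/- array 1 Oas3 was below the array median. All 3 genes were lowest on Foxd1+/- array 1 and highest on Foxd1-/- array 2.

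Tgfb3 was most alike to Prkg1 and Gucy1a2 (0.038 each), a kinase and a cyclase subunit of cyclic GMP signalling, which like it were highest on array 2 labelled Foxd1+/+ and lowest on array 1. Tgfb1 was most alike to Hdac10 and Trmt13 (0.016 and 0.019), and Itga11 to Rab3ip and Eno2 (0.025 and 0.031). Ltbp2 was most alike to Ago3 and Tspyl3 (0.022 and 0.023), Smad7 to Cyp51 and Klhdc2 (0.013 each), and Skil to Zfp184 and Gprc5b (0.018 and 0.024), all within small ranges.

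**Figure D5:**
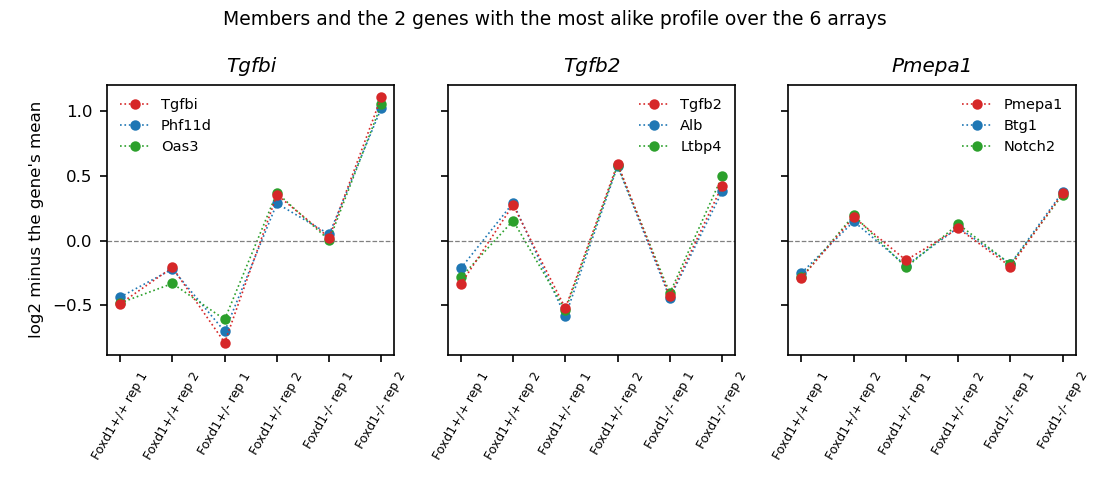
Log2 level minus the gene's own mean on each of the 6 arrays (x axis) for Tgfbi, Tgfb2 and Pmepa1 (red) and the 2 genes most alike to each (blue and green); dotted lines only join points of a gene. Tgfbi, Phf11d and Oas3 are highest on Foxd1-/- replicate 2, and Tgfb2, Alb and Ltbp4 alternate between array 1 and array 2.

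Since Tgfb2 was called and Tgfbi ran beside an interferon-induced gene, their promoters are shown with short motifs that bear on each pathway. RefSeq start sites (build GRCm38.p6) gave the windows of 300 bases searched here, for 5 of the 9 members (Tgfb1, Tgfb2, Tgfbi, Ltbp2 and Itga11). Smad7 lies on chromosome 18, whose windows were left out of the member search, so Smad7 was not searched. Tgfb3, Skil and Pmepa1, of which Pmepa1 was also called, had no usable window and were not searched either. Sequences are printed 5′ to 3′ on the gene's strand with the matched motif in capitals. Both strands were searched for CAGACA, the core of the Smad-binding CAGA box, for the palindromic Smad site GTCTAGAC, for the AP-1 site TGANTCA, and for GAAANNGAAA, the core of the interferon-stimulated response element. None of the motifs overlap in the printed windows.

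For Tgfb2, the ligand that was called, the window lies within the gene's RefSeq span, since a longer transcript starts farther upstream. The 30 bases around its CAGACA match, chr1:186706176-186706205, minus strand, are shown:

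Tgfb2: ccttggtgatcaCAGACAgtgactactgca

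Tgfbi, chr13:56609336-56609585, plus strand, and Oas3, chr5:120777660-120777909, minus strand, are the 250 bases before each start and are shown for the interferon core that each holds:

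Tgfbi: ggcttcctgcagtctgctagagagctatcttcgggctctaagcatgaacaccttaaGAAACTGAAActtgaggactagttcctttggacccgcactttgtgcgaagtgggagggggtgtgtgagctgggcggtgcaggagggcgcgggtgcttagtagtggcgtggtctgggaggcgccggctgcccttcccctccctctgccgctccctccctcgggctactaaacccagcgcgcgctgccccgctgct

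Oas3: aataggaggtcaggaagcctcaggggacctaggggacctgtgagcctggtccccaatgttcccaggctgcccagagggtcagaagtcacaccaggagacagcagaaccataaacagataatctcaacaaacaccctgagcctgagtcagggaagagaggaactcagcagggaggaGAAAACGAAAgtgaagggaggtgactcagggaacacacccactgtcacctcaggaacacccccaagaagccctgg

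CAGACA was found in 1 of 5 member windows (Tgfb2) and in 21% of all 32851 windows. The interferon core was found in 1 of 5 (Tgfbi) and in 3.44% of all windows, and the Phf11d window held no match. The Smad palindrome and the AP-1 site were found in 0 of these 5, which leave out Smad7, and in 0.213% and 7.81% of all windows. Oas3 also holds 2 AP-1 matches, left in lower case. The windows of Alb and Ltbp4, the genes most alike to Tgfb2, held no CAGACA match. A match describes these letters only, and no binding was measured here.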

How the data were processed

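Per the labels' protocols, 300 ng of total RNA per array went into an Affymetrix whole transcript labelling. The authors deposited 1 table of probe set intensity values on a linear scale, and how background, scaling and probe summary were handled is not stated in those labels. Of 28856 probe sets, 21789 had 1 symbol in the platform annotation. The highest-mean probe set per gene was kept, giving 19938 genes. Values became log2(intensity + 1), a scale that shrinks differences near the floor, and were fitted with limma 3.58.1 in R 4.3.3 (lmFit, eBayes) on all 6 arrays, 1 mean per genotype, with Benjamini-Hochberg adjustment over all genes at 0.05. The replicate comparison added the replicate number as a term. The fit was tested on simulated data, with no outcome given here. That test does not show what the fit can detect on these arrays, where Foxd1 itself was not called. Alternatives covered the pseudocount (16), quantile normalization, median centring, a filter on dim genes, averaged probe sets, an intensity trend, a replicate block, the 4 arrays compared alone and left-out arrays. Members and lists were chosen with earlier results of these data known. Named are the 9 members, Foxd1, up to 3 genes per list and comparison by p, all called genes of a list with 5 or fewer, and the 2 genes most alike to each member. The other called latency and matrix genes, and the marker genes used as level checks, were named after their values were seen. Motifs were searched in RefSeq windows (GRCm38.p6). List genes without a probe set of 1 symbol were not analysed here. Precision is limited by 2 arrays per genotype. Figures used matplotlib 3.10.9.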

Additional observations from a re-analysis of the deposited data

Results flagged for a closer look

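The difference between Foxd1+/- and Foxd1+/+ had opposite signs in the arrays numbered 1 and those numbered 2 for 2 members, each by at least 0.25 on the log2 scale, a size chosen after seeing the data. Tgfb3 read 0.25 higher in Foxd1+/- on array 1 and -0.46 on array 2. Tgfbi read -0.30 on array 1 and 0.56 on array 2. With 1 array per genotype and number, neither difference between the pairs was tested. Foxd1 itself differed by -0.91 and 0.83 between the same arrays.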

How the results depend on the processing

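In the 3 genotype comparisons limma called 0 members and 0 genes under every alternative run. The replicate block, which pairs arrays by number, left 1 member at an unadjusted p under 0.05 in Foxd1-/- against Foxd1+/+ and 1 against Foxd1+/-, Tgfbi in both (log2 difference 0.91 and 0.78, limma adjusted p = 0.56 and 0.61), and changed no call. Differences between array 2 and array 1 correlated across genes between genotypes (r of 0.55, 0.73 and 0.73), which with 2 numbers is only a hint from the data that numbers pair the arrays. Without array 2 of Foxd1+/+ and of Foxd1+/- the sign turned for Skil (0.011), Tgfb1 (0.048) and Tgfb2 (0.52) in Foxd1-/- against Foxd1+/-, for Tgfb3 (0.26) in Foxd1-/- against Foxd1+/+, and for Itga11 (0.18), Tgfb2 (-0.19), Tgfb3 (0.25) and Tgfbi (-0.30) in Foxd1+/- against Foxd1+/+. The cause was not tested. With 1 array left out, which leaves the numbers unequal and assumes that a lone array varies like the others, differences in Foxd1-/- against Foxd1+/+ ranged from -0.047 to 0.16 for Ltbp2, -0.15 to 0.42 for Pmepa1, -0.10 to 0.016 for Smad7, -0.11 to 0.16 for Tgfb1, -0.40 to 0.45 for Tgfb2 and -0.39 to 0.26 for Tgfb3. In Foxd1-/- against Foxd1+/- they ranged from -0.096 to 0.055 for Ltbp2, -0.17 to 0.40 for Pmepa1, -0.061 to 0.011 for Skil, -0.020 to 0.10 for Smad7, -0.14 to 0.13 for Tgfb1, -0.60 to 0.52 for Tgfb2 and -0.065 to 0.15 for Tgfb3. In Foxd1+/- against Foxd1+/+ they ranged from -0.23 to 0.18 for Itga11, -0.027 to 0.18 for Ltbp2, -0.21 to 0.26 for Pmepa1, -0.27 to 0.0015 for Skil, -0.096 to 0.15 for Tgfb1, -0.49 to 0.63 for Tgfb2, -0.43 to 0.22 for Tgfb3 and -0.44 to 0.70 for Tgfbi. Members at an unadjusted p under 0.05 ranged from 0 to 2 in both comparisons with Foxd1+/+.

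For array 2 against array 1, leaving out the Foxd1-/- arrays gave 0 genes and 0 members called, 3 members at an unadjusted p under 0.05 and a Smad7 difference of -0.016. Leaving out the Foxd1+/+ arrays also gave 3 members at that level. A single array cannot be left out there, since its partner then carries no difference. The intensity trend and the filter on dim genes, which drops Itga11, added a call of Tgfbi (limma adjusted p = 0.026 and 0.031). Tgfb2 and Pmepa1 stayed called under the other scaling, pseudocount and probe set choices.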
